A study of Drosophila melanogaster with 6 samples.

Results

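The genes described here are 9 cell adhesion genes of Drosophila melanogaster, taken as a named set and found under their FlyBase identifiers among 17559 genes. Of these, 4 form the irre module (kirre, rst, sns and hbs) and 5 are other surface adhesion genes (ed, Fas2, Nrg, Nrt and Con). All 9 were found; hbs stood under an older identifier, FBgn0029082. RNA was read in 3 dorsal and 3 ventral libraries of the outer proliferation centre, the larval neuroepithelium from which the medulla of the optic lobe arises. All 6 libraries came from late second-instar larvae labelled female and raised at 25 °C, and each pooled GFP-positive cells drawn by hand with a micropipette out of 3 to 4 brains. The labels do not name the genotype or the driver behind the GFP label. The libraries held 21114019 to 27815885 counted reads each.

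The irre module is a small group of immunoglobulin-domain receptors that recognise one another across cell borders. Kirre and Rst sit on one cell and bind Sns and Hbs on its neighbour, a pairing known from myoblast fusion and from the sorting of cells in the pupal eye. Loss of rst also disturbs the optic chiasm, which gave the irregular chiasm locus its name. The other 5 proteins hold cells together by binding their own kind or a partner: Echinoid (ed) at adherens junctions, Neuroglian (Nrg, the fly L1-type protein) at septate junctions and axons, Fasciclin 2 (Fas2, the fly NCAM-type protein) in axon bundles, Neurotactin (Nrt) through the secreted protein Amalgam, and Connectin (Con) on subsets of embryonic muscles and motor neurons. The comparison of dorsal with ventral cells asks whether these surface labels differ between the parts of the neuroepithelium that the series title sets apart by Spalt and Disco.

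Levels are in CPM, reads scaled to a common library size with TMM factors, and the 3 values of a group are given in the order of replicates 1 to 3. A log2 fold change is dorsal minus ventral and carries its SE, and intervals are unadjusted 95% intervals of the same edgeR quasi-likelihood fit over 8707 genes. The group labels held: salm stood at 60.0, 35.4 and 37.5 CPM in dorsal libraries, against 0.417, 0.0491 and 0.289 CPM in ventral libraries, and disco at 0.624, 1.10 and 3.59 CPM in dorsal, against 61.4, 36.4 and 32.6 CPM in ventral libraries. Ventral replicates 1 and 2 stood apart from the rest, on principal components that held 35.4% and 24.8% of the variance. The male-enriched RNA lncRNA:roX2 was at 624, 268 and 0 CPM in dorsal cells and 261, 3.05 and 234 CPM in ventral cells, although all are labelled female; the 0 allows up to 0.115 CPM. Of the neuroepithelial markers, Optix stood at 109 to 250 CPM in dorsal cells and 173 to 188 CPM in ventral cells and shg at 122 to 210 and 91.2 to 186 CPM, whereas Rx was at 0 to 8.49 CPM over all libraries. Neuroblast and neuron genes were also read in every library: ase was at 211 to 476 CPM in dorsal cells and 298 to 444 CPM in ventral cells, and elav at 235 to 521 and 274 to 583 CPM. Neuron genes differed widely in level. The gene unc-13 was at 352 to 412 CPM in dorsal and 367 to 539 CPM in ventral cells. Much lower were nSyb (1.05 to 1.64 CPM in dorsal and 0.618 to 39.0 CPM in ventral cells) and brp (2.23 to 4.40 and 6.22 to 20.8 CPM). With edgeR, 0 of 9 tested neuroepithelial, 8 neuroblast, 7 lamina and 3 muscle, blood and tracheal marker genes passed between the groups (0 at an unadjusted p under 0.05, and 0 with DESeq2). Over all tested genes, 0.0919% passed with edgeR, 3.2% had an unadjusted p under 0.05 and 0.495% passed with DESeq2. In such bulk samples, fewer cells of a type and less RNA per cell cannot be told apart.

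No adhesion gene of the set separated dorsal from ventral cells past the threshold. With edgeR, 0 of the 9 genes had an adjusted p under 0.05, where 0.0919% of all tested genes did (8 of 8707). At an unadjusted p under 0.05 there was 1 gene, kirre, against 3.2% of all tested genes. DESeq2 also called 0 of the 9, against 0.495% of all genes it tested, and put 1, kirre, under an unadjusted 0.05. All 9 genes passed the filter on low counts. The fitted log2 fold change was above 0 in 7 and below 0 in 2 of them, with a median of 0.30 beside 0.00 over all tested genes; 50.3% of all tested genes were above 0.

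Kirre (Kin of irre, also called dumbfounded, the receptor of muscle founder cells) had the largest dorsal excess of the set. It stood at 10.1, 14.3 and 21.3 CPM in dorsal libraries, against 4.47, 9.14 and 5.89 CPM in ventral libraries. Every dorsal library lay above every ventral one, though dorsal replicate 1 and ventral replicate 2 came close: the counting interval of the first was 8.94 to 11.4 CPM and that of the second 7.87 to 10.5 CPM (exact Poisson 95% intervals, for counting error only). Kirre was the single gene of the 9 whose groups did not overlap, a pattern that 4.09% of all tested genes showed with dorsal higher. Means were 15.2 ± 5.64 CPM in dorsal cells and 6.50 ± 2.39 CPM in ventral cells (SD, n = 3 each). The log2 fold change was 1.23 ± 0.42, a fold of 2.35 with an interval of 1.23 to 4.48, and it ranged over 0.91 to 1.55 with 1 library left out (0.91 ± 0.49 without dorsal replicate 3, 1.55 ± 0.45 without ventral replicate 2). It missed the threshold over all genes (adjusted p = 1.00 with edgeR and 0.193 with DESeq2, and 0.193 to 1.00 over the 18 alternatives).

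Kirre is X-linked, as are rst, Fas2 and Nrg, while 17.1% of tested genes are, and roX2 varied widely within both groups. With roX2 as a covariate the log2 fold change of kirre was 1.12 ± 0.37, and without dorsal replicate 3 and ventral replicate 2, the libraries with least roX2, it was 1.22 ± 0.51. Since its groups did not overlap, any choice of these libraries gives kirre the same direction, so the direction of the reduced fit was fixed in advance. The part of X dosage in the kirre values was not tested.

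Rst (roughest, or irregular chiasm C), the partner paralog of Kirre, had overlapping groups. It stood at 32.3, 39.1 and 34.4 CPM in dorsal libraries, against 21.3, 55.7 and 31.0 CPM in ventral libraries. The dorsal values fell inside the ventral range, whose ends were ventral replicates 1 and 2. Its log2 fold change was -0.03 ± 0.32 (adjusted p = 1.00, edgeR), with a fold interval of 0.595 to 1.62, and its sign turned with the choice of libraries and scaling (0.43 without ventral replicate 2, and 0.01 with library size alone).

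Kirre and rst lie together in the genome. In the BDGP6 annotation kirre spans X:2740384-3134532 on the plus strand, and rst lies within that span on the minus strand at X:2950399-2973834. They share no annotated exon base. The gaps between kirre exons reach 121519 bp.

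Sns (sticks and stones, 2R:8798489-8856091, plus strand), the receptor of fusion-competent myoblasts, had mostly higher values in dorsal cells. It was at 28.9, 29.2 and 26.1 CPM in dorsal libraries, against 18.3, 17.9 and 26.6 CPM in ventral libraries. The groups overlapped through ventral replicate 3 alone, which lay just above dorsal replicate 3. Dorsal minus ventral, sns was at 0.42 ± 0.25 on the log2 scale (fold interval 0.916 to 1.96; adjusted p = 1.00, edgeR), 0.63 without ventral replicate 3 and 0.08 without ventral replicates 1 and 2.

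Hbs (hibris, 2R:15011396-15042134, plus strand), the paralog of Sns that shares and modulates its role, varied more within the dorsal group than between groups. It was at 31.4, 14.5 and 26.0 CPM in dorsal libraries, against 17.4, 23.2 and 18.0 CPM in ventral libraries. Dorsal replicate 2 was the lowest of all 6 and dorsal replicate 1 the highest. Dorsal minus ventral it was 0.30 ± 0.31 on the log2 scale (fold interval 0.756 to 1.99; adjusted p = 1.00, edgeR), 0.05 without dorsal replicate 1 and 0.56 without dorsal replicate 2.

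**Figure D1:**
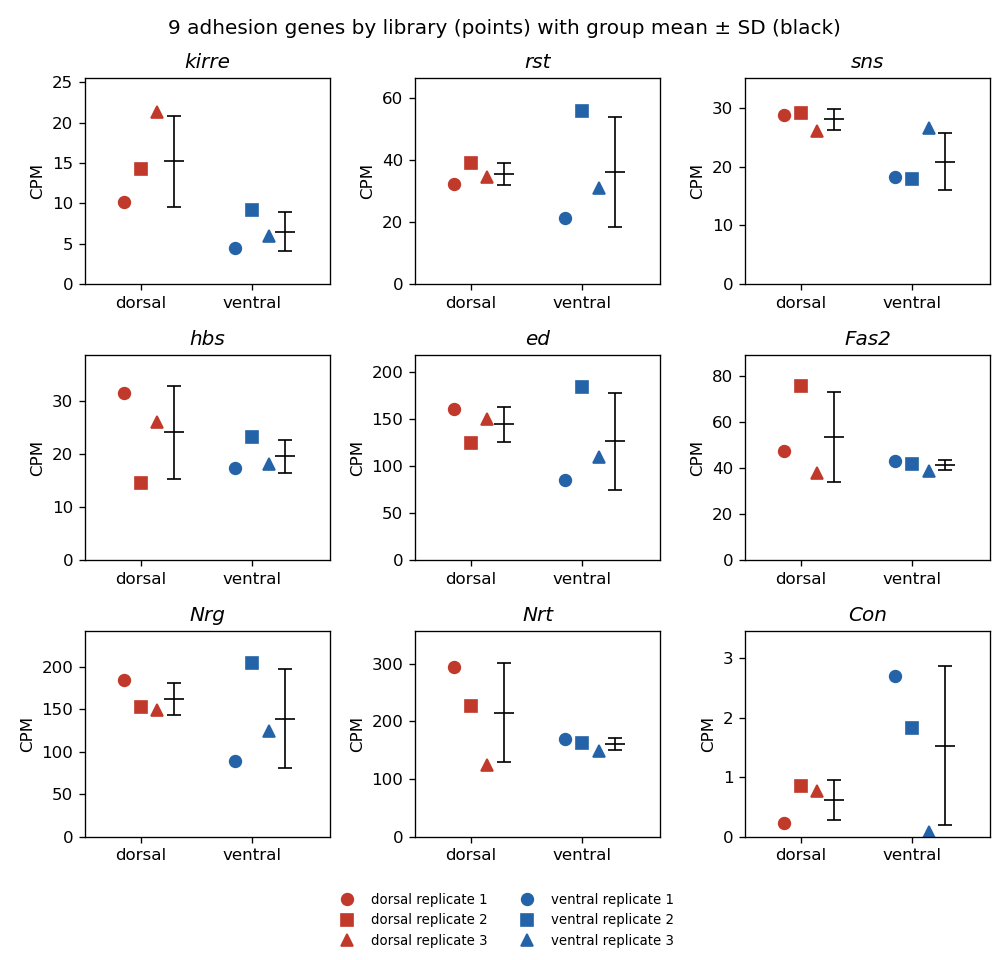
CPM of the 9 adhesion genes in each library (points; shape gives the replicate number), with dorsal on the left, ventral on the right, and mean ± SD of 3 libraries in black; each panel has its own linear axis from 0. Kirre is the panel in which every dorsal point (10.1 to 21.3 CPM) lies above every ventral point (4.47 to 9.14 CPM).

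Seen as receptor pairs, the ratio of kirre to rst did not overlap between the groups, whereas that of sns to hbs did. To compare genes, CPM was divided by merged exon length in kb. On this scale the level of kirre over that of rst was 0.250, 0.290 and 0.493 in dorsal libraries, against 0.167, 0.131 and 0.151 in ventral libraries, so that kirre made up 20.0% to 33.0% of the pair in dorsal and 11.5% to 14.3% in ventral cells. The level of sns over that of hbs was 0.580, 1.27 and 0.631 in dorsal cells and 0.662, 0.486 and 0.934 in ventral cells, which overlapped. Kirre and rst together stood at 6.46, 8.08 and 8.21 CPM per kb in dorsal cells and 3.97, 10.1 and 5.71 CPM per kb in ventral cells. For sns and hbs together the values were 9.05, 6.01 and 7.75 CPM per kb in dorsal cells and 5.29, 6.29 and 6.34 CPM per kb in ventral cells. The ratio of the first sum to the second overlapped between the groups, at 0.714 to 1.35 in dorsal and 0.751 to 1.60 in ventral libraries. These ratios were formed after the values were seen and carry no test. Kirre alone already had groups without overlap, so its ratio to rst is not a separate result. The share of all gene pairs with such a ratio was not counted.

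**Figure D2:**
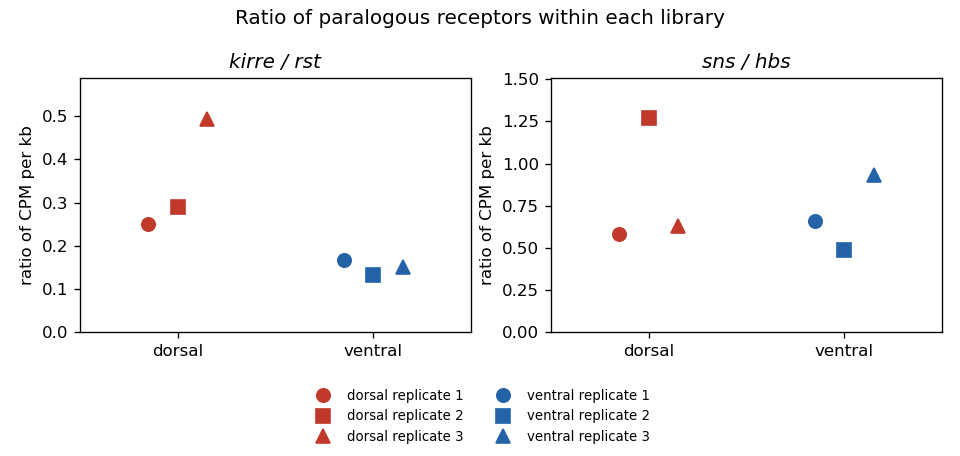
Ratio of the CPM per kb of kirre to rst (left panel) and of sns to hbs (right panel) within each library, dorsal left of ventral; points are libraries and shape gives the replicate number. The kirre to rst ratio is 0.250 to 0.493 in dorsal and 0.131 to 0.167 in ventral libraries, while the sns to hbs ratios overlap.

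Echinoid (2L:4031377-4115749, plus strand) and Neuroglian (X:8517373-8555170, plus strand) were abundant in both groups and did not differ beyond the spread of the ventral libraries. Ed stood at 160, 124 and 150 CPM in dorsal libraries, against 85.0, 184 and 110 CPM in ventral libraries. Nrg stood at 184, 153 and 149 CPM in dorsal libraries, against 89.4, 204 and 124 CPM in ventral libraries. For both genes the 3 dorsal values lay between a high ventral replicate 2 and a low ventral replicate 1. The log2 fold changes were 0.19 ± 0.27 for ed (fold interval 0.757 to 1.73) and 0.22 ± 0.27 for Nrg (0.765 to 1.78), each with an adjusted p of 1.00 (edgeR). Without ventral replicate 1 they were -0.03 for ed and -0.02 for Nrg, and without ventral replicate 2 they were 0.56 for ed and 0.60 for Nrg. Exons of ed share 199 bp, or 3.10% of its exon length, with asRNA:CR44984 on the opposite strand. Whether counting used strand is not stated in the sources used here.

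Fas2 (X:4132887-4206093, minus strand) lay within a narrow range apart from 1 dorsal library. It was at 47.4, 75.5 and 37.9 CPM in dorsal libraries, against 43.1, 41.7 and 38.9 CPM in ventral libraries. Dorsal replicate 2 was the high one, and the others overlapped. For Fas2 the log2 fold change was 0.38 ± 0.26 (fold interval 0.868 to 1.95; adjusted p = 1.00, edgeR), 0.05 without dorsal replicate 2 and 0.57 without dorsal replicate 3. Of the 10 glial markers, repo, Gs2, wrapper, gcm, loco and alrm were each highest in ventral replicate 1 and, among dorsal libraries, in replicate 2. The rest of the list did not share this. Gat was highest in ventral replicate 2 (26.1 CPM, against 1.90 CPM in ventral replicate 1), moody in dorsal replicate 1 (11.7 CPM) and Eaat1 in dorsal replicate 2 (177 CPM). The gene nrv2 was highest in ventral replicate 1 but, among dorsal libraries, in replicate 3. The defining glial gene repo was at 0.156, 1.10 and 0.917 CPM in dorsal libraries, against 3.03, 0.197 and 0.577 CPM in ventral libraries. Gs2 was at 0.312, 9.42 and 6.27 CPM in dorsal libraries, against 11.3, 0.393 and 0.453 CPM in ventral libraries. For wrapper the values were 0.975, 7.69 and 2.60 CPM in dorsal libraries and 23.0, 0.491 and 2.72 CPM in ventral libraries, and for alrm they were 0.351, 0.708 and 0.115 CPM in dorsal libraries and 6.10, 0.0983 and 0 CPM in ventral libraries. The summed level of the list, 1202 to 1252 CPM in dorsal cells and 1016 to 1405 CPM in ventral cells, was mostly that of nrv2 (986 to 1068 CPM in dorsal and 861 to 1161 CPM in ventral cells). With edgeR 0 of 9 tested glial genes passed (0 at an unadjusted p under 0.05, and 0 with DESeq2). Their part in the Fas2 values was not tested.

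Nrt (3L:16766072-16777465, plus strand), which encodes a transmembrane protein with a cholinesterase-like outer domain, was the most abundant gene of the set per exon length and varied more among dorsal than among ventral libraries. Its level was 295, 226 and 124 CPM in dorsal libraries, against 169, 163 and 149 CPM in ventral libraries. Dorsal replicate 3 lay below all ventral libraries and the other 2 dorsal libraries above them. The log2 fold change was 0.42 ± 0.27 (fold interval 0.879 to 2.04; adjusted p = 1.00, edgeR), 0.12 without dorsal replicate 1 and 0.70 without dorsal replicate 3. Its exons share 935 bp (21.8%) with mus302 on the opposite strand, whose reads cannot be told apart from those of Nrt if counting ignored strand. Ama, which encodes the Nrt ligand Amalgam, was at 8.42, 22.5 and 3.86 CPM in dorsal libraries, against 83.9, 11.4 and 6.59 CPM in ventral libraries, with the high value in ventral replicate 1 alone (log2 fold change -1.55 ± 0.93, adjusted p = 1.00, edgeR).

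Con (3L:4936758-5079033, minus strand) was the lowest gene of the set, with 6, 24 and 20 reads in dorsal libraries, against 71, 37 and 2 reads in ventral libraries. In CPM this was 0.234, 0.850 and 0.765 in dorsal cells and 2.69, 1.82 and 0.0824 in ventral cells. Ventral replicates 1 and 2 lay above all dorsal libraries and ventral replicate 3 below them; the exact Poisson 95% interval of its 2 reads is 0.242 to 7.22 reads. The log2 fold change was -1.30 ± 1.14, with a fold interval of 0.0700 to 2.34 (adjusted p = 1.00, edgeR). It was -0.61 without ventral replicate 1, and 2.83 ± 1.89 without ventral replicates 1 and 2, which leaves 1 ventral library. The synaptic gene nSyb was also highest in ventral replicates 1 and 2, at 1.05, 1.06 and 1.64 CPM in dorsal, against 39.0, 6.63 and 0.618 CPM in ventral libraries. Of 9 tested genes of the neuron list, 2 had higher values in dorsal and 7 in ventral libraries, and 0 passed with edgeR. At an unadjusted p under 0.05 there were 5 of the 9, beside 3.2% of all tested genes. Of these 5, nrv3, nSyb, Syt1 and brp were higher in ventral cells and cac in dorsal cells. The calcium channel gene cac had the smallest p of the list and was the 1 gene DESeq2 called, at 74.8, 38.6 and 54.0 CPM in dorsal libraries, against 17.2, 19.8 and 16.4 CPM in ventral libraries. Its edgeR log2 fold change was 1.65 ± 0.27, with an adjusted p of 0.096. The summed level of the 10 neuron genes was 784 to 1046 CPM in dorsal cells and 880 to 1420 CPM in ventral cells. This sum was mostly that of elav and unc-13, at log2 fold changes of 0.04 and -0.17, whereas the median of the tested neuron genes was -1.19. The part of the neuron genes in the Con values was not tested.

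**Figure D3:**
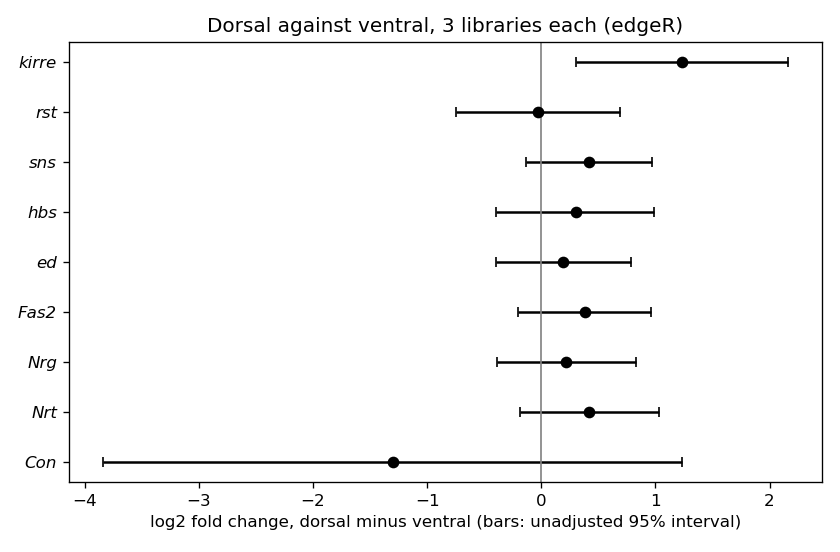
Log2 fold change, dorsal minus ventral, of the 9 adhesion genes (points) with unadjusted 95% intervals (bars) from the edgeR fit on 3 dorsal and 3 ventral libraries. The interval of kirre, 0.30 to 2.16, is the one that excludes 0, and that of Con, -3.84 to 1.23, is the widest.

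The intervals limit how large a difference these libraries allow. For the 7 genes other than kirre and Con, they leave room for a fold of at most 2.04 toward dorsal (Nrt) and of at least 0.595 toward ventral (rst). For kirre the upper bound was 4.48, and for Con the interval spans folds from 0.0700 to 2.34.

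Abundance differed widely within the set. On the scale of CPM per kb, mean levels over 6 libraries were 43.9 for Nrt, 21.1 for ed, 15.1 for Nrg, 6.49 for Fas2, 5.70 for rst, 3.97 for hbs, 2.82 for sns, 1.38 for kirre and 0.180 for Con. Nrt stood at the 75.1 percentile of tested genes, ed at 60.6, Nrg at 54.0, kirre at 17.8 and Con at 2.36. Nrt exceeded ed, ed exceeded Nrg, Nrg exceeded Fas2, sns exceeded kirre and kirre exceeded Con in 6 of 6 libraries. Fas2 and rst could not be ordered (Fas2 was above rst in 4 of 6 libraries), and rst was above hbs, and hbs above sns, in 5 of 6.

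Spread within groups differed among the genes. In rst, ed, Nrg, sns and Con the ratio of the highest to the lowest library was larger in ventral than in dorsal cells, for example 1.21 in dorsal and 2.62 in ventral libraries for rst. For Con the ventral ratio of 32.6 rests on the 2 reads of ventral replicate 3. In hbs, Fas2 and Nrt the ratio was larger in dorsal cells, for example 2.38 in dorsal and 1.13 in ventral libraries for Nrt. For kirre it was nearly the same, at 2.10 in dorsal and 2.04 in ventral libraries. The median ratio over all tested genes was 1.41 in dorsal and 1.63 in ventral libraries.

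Rst, ed and Nrg shared their extreme libraries: ventral replicate 1 was the lowest and ventral replicate 2 the highest of all 6. That is 3 of 9 genes, and 11.8% of all tested genes showed it. Of the marker lists, the summed neuroepithelial genes were also highest in ventral replicate 2 and lowest in ventral replicate 1 (2137 to 2495 CPM in dorsal, against 2112, 3123 and 2363 CPM in ventral libraries). The neuron list was highest in ventral replicate 2 at 1420 CPM but lowest in dorsal replicate 3 at 784 CPM. Other lists differed: the neuroblast and glial sums were highest in ventral replicate 1, at 1433 and 1405 CPM, against 737 and 1267 CPM in ventral replicate 2. The muscle, blood and tracheal sum was also highest in ventral replicate 1, and the lamina sum in dorsal replicate 1. The neuroepithelial sum was mostly that of ogre and brat (808 and 636 CPM in ventral replicate 1, 1318 and 873 CPM in ventral replicate 2). Among single genes of that list, ogre, brat, tll and Vsx1 were highest in ventral replicate 2. Lowest in ventral replicate 1 were shg, crb and Vsx1, so that Vsx1 alone showed both. The part of these marker genes in the values of rst, ed and Nrg was not tested. Likeness was measured as the root mean square difference of log2(CPM + 1), centred on each gene's mean over the 6 libraries. Ed and Nrg were the closest pair of the set, at 0.0972: among 8706 other genes Nrg was in place 2 for ed, and ed in place 3 for Nrg. The next pairs were rst with Nrg, at 0.199, and rst with ed, at 0.222, and many other genes were closer. For rst, Nrg was in place 259 and ed in place 422, while rst was in place 132 for Nrg and 273 for ed.

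**Figure D4:**
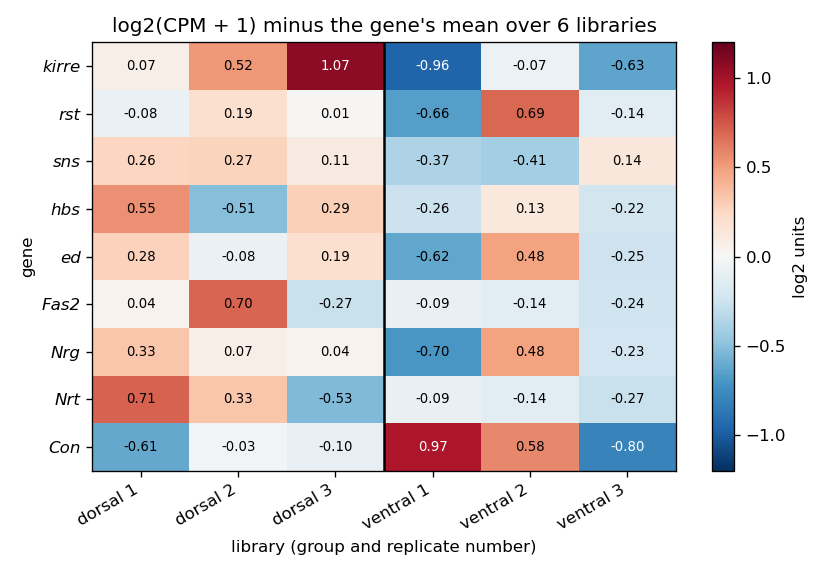
Log2(CPM + 1) of each adhesion gene (rows) in each library (columns, dorsal left of the black line and ventral right of it), minus the mean of that gene over the 6 libraries; red is above and blue below the mean. Rst, ed and Nrg share a low ventral replicate 1 (-0.66, -0.62 and -0.70) and a high ventral replicate 2 (0.69, 0.48 and 0.48).

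For the irre module, the 3 genes of like pattern were named from the whole table by the same measure, as a description over 6 libraries. Nearest to kirre was Trpm, a TRP-family cation channel gene, at a difference of 0.109, with 12.8, 21.7 and 27.5 CPM in dorsal libraries, against 6.33, 12.2 and 7.01 CPM in the ventral ones. The log2 fold change of Trpm was 1.28 ± 0.39 and did not pass the threshold. Next were inaD, the scaffold gene of photoreceptor signalling (0.198, with 0.702 to 3.36 CPM in dorsal cells and 0.114 to 1.38 CPM in ventral cells), and lncRNA:CR44589 (0.242). Nearest to rst were lncRNA:CR43890, a gene of 0 to 1.47 CPM, CG40191 and the lysosomal membrane protein gene Lamp1, at differences of 0.045 to 0.0708. The 1 added to CPM in this measure damps fold differences of genes near or below 1 CPM, such as lncRNA:CR43890 and inaD. Nearest to sns were CG11178, the mitochondrial seryl-tRNA synthetase gene SerRS-m and the lariat debranching enzyme gene ldbr (0.0556 to 0.0764). Nearest to hbs were dare, the Notch-modifying glycosyltransferase gene fng and the late endosomal transporter gene spin (0.110 to 0.122); fng stood at 105, 62.4 and 89.6 CPM in dorsal cells and 59.7, 92.3 and 67.2 CPM in ventral cells.

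Other adhesion genes also gave 0 calls. Of 100 genes on 6 lists of adhesion receptors and their partners, 96 were matched and 85 tested. An adjusted p under 0.05 was found for 0 of them with edgeR or DESeq2, beside 0.0919% and 0.495% of all tested genes. At such shares, 0 of 85 says little about adhesion genes as a group. At an unadjusted p under 0.05 edgeR put 5 (dock, Nrx-1, CadN, Cad87A and Fit2), beside 3.2% of all tested genes. The same shares stand beside the counts of each list below. Values were higher in dorsal libraries for 49 and higher in ventral libraries for 36, with a median log2 fold change of 0.04 beside 0.00 over all tested genes. Groups did not overlap in 4 genes with dorsal higher (4.71%; Cad87A, Cad96Ca, Fit2 and beta-Spec), beside 4.09% of all tested genes. They did not overlap in 5 with ventral higher (5.88%; otk, beat-IIIc, Nrx-1, CadN and alpha-Cat), beside 3.17% of all tested genes. Cad96Ca, beat-IIIc and alpha-Cat were named after their values were seen.

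Genes for partners and fusion effectors of the irre receptors had fold changes of both signs. Of 15 tested, 7 had higher values in dorsal and 8 in ventral libraries, with a median log2 fold change of -0.01, and 0 passed (edgeR; 1 at an unadjusted p under 0.05, and 0 with DESeq2). The adaptor gene dock was at 104, 84.6 and 75.5 CPM in dorsal libraries, against 126, 158 and 92.5 CPM in ventral libraries, and overlapped. Ced-12, which with Mbc activates Rac, averaged 43.0 ± 9.93 CPM in dorsal cells and 36.0 ± 12.5 CPM in ventral cells (SD, n = 3 each).

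Among 19 other immunoglobulin genes, 11 had higher values in dorsal and 8 in ventral libraries (median log2 fold change 0.09), and 0 passed at an adjusted or an unadjusted p under 0.05 with edgeR, or with DESeq2. The smallest p belonged to otk, a receptor-like pseudokinase gene, at 49.1, 45.2 and 17.4 CPM in dorsal libraries, against 54.9, 60.6 and 59.6 CPM in ventral libraries. Here dorsal replicate 3 was the low one. Ama, given above beside Nrt, came next.

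Cadherin genes held the smallest unadjusted p of the lists. Of 11 cadherin and catenin genes tested, 7 had higher values in dorsal and 4 in ventral libraries (median 0.26), and 0 passed (edgeR; 2 at an unadjusted p under 0.05, and 0 with DESeq2). CadN, the fly N-cadherin gene, was at 23.0, 24.1 and 17.8 CPM in dorsal libraries, against 42.7, 81.7 and 30.3 CPM in ventral libraries, without overlap (log2 fold change -1.25 ± 0.34, unadjusted p = 0.00451, adjusted p = 1.00, edgeR). Of the neuron list, nrv3 was at 6.98, 14.9 and 17.5 CPM in dorsal libraries, against 72.2, 124 and 16.8 CPM in ventral libraries. Of the 9 tested genes of that list, 2 had higher values in dorsal and 7 in ventral libraries, with a median log2 fold change of -1.19. Syt1 and brp were higher in ventral libraries without overlap, as CadN was, at log2 fold changes of -1.29 and -1.74. Those of nSyb and Rab3 were -3.62 and -1.19. Cac was higher in dorsal libraries, as given beside Con, and the log2 fold changes of elav, unc-13 and cpx were 0.04, -0.17 and -0.23. The part of neuron genes in the CadN values was not tested. Cad87A was at 29.2, 16.0 and 21.9 CPM in dorsal libraries, against 8.61, 15.9 and 13.6 CPM in ventral libraries, the groups all but touching.

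Leucine-rich repeat, fasciclin and cholinesterase-like adhesion genes had higher values in dorsal libraries for 5 and in ventral libraries for 8 of 13 tested (median -0.14), and 0 passed (edgeR; 1 at an unadjusted p under 0.05, and 0 with DESeq2). Neurexin-1 (Nrx-1), a synaptic adhesion gene, was at 0.507, 0.956 and 0.803 CPM in dorsal libraries, against 1.71, 4.62 and 1.85 CPM in ventral libraries. Tartan (trn), a leucine-rich repeat receptor gene, was abundant throughout, with 561 ± 130 CPM in dorsal cells and 475 ± 46.7 CPM in ventral cells (SD, n = 3 each).

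**Figure D5:**
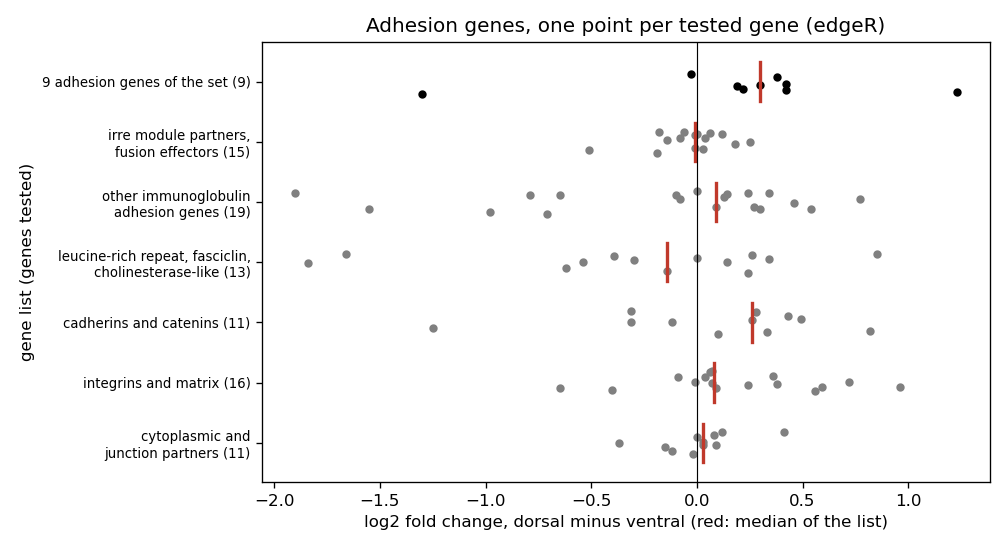
Log2 fold change, dorsal minus ventral (edgeR), with 1 point per tested gene, for the 9 adhesion genes of the set (black) and 6 further adhesion lists (grey); the number of genes tested is in brackets, red bars are medians, and the vertical scatter within a row has no meaning. Medians lie between -0.14 and 0.30, and none of the points passed the threshold over all genes.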

How the data were processed

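The deposited counts are whole reads for each gene, not normalized by the authors. Trimmomatic, featureCounts and DESeq2 with the builds dm6 and BDGP6 were used, per the submitters' processing notes; aligner, versions and strandedness: not given in the sources used here. On the signal scale of the normalized counts, the deposited values equalled counts divided by 1 factor per library (0 values off by more than 0.01 reads). Symbols were matched for 17253 of 17559 identifiers (98.3%); hbs was taken under the identifier given with the set, and coordinates and exon lengths are from the BDGP6 annotation.

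Counts were fitted with edgeR 4.0.16 in R 4.3.3 (TMM, filterByExpr, robust quasi-likelihood, with no covariate). P-values were adjusted by Benjamini-Hochberg over 8707 genes and called under 0.05. SE was taken as the size of the log2 fold change divided by the root of F. Alternatives were other scalings and filters, DESeq2 1.42.0, limma 3.58.1 (voom, and trend on the normalized counts plus 1), the replicate number as a block, lncRNA:roX2 as a covariate, and libraries left out. Intervals used scipy 1.17.1. Nothing says that samples came from separate days, so p-values measure only the spread between these pooled samples.

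The set and the lists were chosen with earlier results of these data known. Named were all 9 genes, the 2 smallest p of each list (up to 4 where called), 3 nearest patterns per irre gene, and the title genes as a check; marker genes were named after their values were seen. List genes without a matching symbol (Arf51F, Fas1, scb, trol, Dl and btl) were not analysed here.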

Additional observations from a re-analysis of the deposited data

How the results depend on the processing

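Over the 18 alternatives, 0 of the 9 adhesion genes and 0 of the other adhesion list genes passed the threshold, and the smallest adjusted p of the 9 was 0.193 (kirre, DESeq2). The direction held in all 18 for kirre (0.91 to 1.55), sns (0.08 to 0.63), hbs (0.05 to 0.56), Fas2 (0.05 to 0.57) and Nrt (0.12 to 0.70). For kirre, whose groups did not overlap, the direction was fixed in advance in the fits with libraries left out. The lowest values of hbs (0.05 ± 0.34), Fas2 (0.05 ± 0.24) and Nrt (0.12 ± 0.27) were smaller than their SE. That of sns came from the fit that leaves 1 ventral library. The log2 fold change of rst turned positive with library size alone (0.01), limma-voom (0.15), limma-trend (0.06), the replicate block (0.08), without ventral replicates 1 and 2 (0.19) and without dorsal replicate 3 and ventral replicate 2 (0.43). Leaving out 1 library gave -0.30 to 0.43 for rst, -0.03 to 0.56 for ed, -0.02 to 0.60 for Nrg and -1.87 to -0.61 for Con; ed and Nrg turned negative without ventral replicate 1. Without dorsal replicate 3 and ventral replicate 2, Nrg was at 0.64. Con turned positive with limma-voom (1.38) and without ventral replicates 1 and 2 (2.83). The cause was not tested.

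Over all genes, 2 were called toward dorsal and 6 toward ventral. DESeq2 called 14 and 34, and no filter on low counts gave 4 toward dorsal. Ventral calls numbered 1 without ventral replicates 1 and 2, 3 without dorsal replicate 3 and ventral replicate 2, and 2 to 6 with 1 library left out (2 without dorsal replicate 1), all in fits with fewer samples; dorsal calls numbered 2 to 3. Deviations of same-numbered libraries correlated at 0.003, -0.038 and 0.059, and 1 of 6 libraries correlated best with its own number. The replicate block gave 2 dorsal and 5 ventral calls and a kirre log2 fold change of 1.22. Low reads limit Con, with 2 to 71 per library.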

Other observations

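Genes for integrins, their adaptors and the basement membrane gave 0 calls. Of 16 tested, 12 were higher in dorsal and 4 in ventral libraries, where 50.3% of all tested genes were above 0. The median log2 fold change was 0.08 beside 0.00 over all tested genes, and 5 of the 12 (stck, Ilk, mys, if and rhea) were at 0.04 to 0.09. With edgeR 0 passed (1 at an unadjusted p under 0.05, and 0 with DESeq2). The kindlin gene Fit2, whose protein helps activate integrins, was at 28.9, 16.9 and 24.2 CPM in dorsal libraries, against 12.6, 13.7 and 16.2 CPM in ventral libraries. Its groups did not overlap (log2 fold change 0.72 ± 0.28, adjusted p = 1.00, edgeR). LanB2, the laminin gamma chain gene, was at 41.9, 18.8 and 29.4 CPM in dorsal libraries, against 17.1, 21.8 and 20.8 CPM in ventral libraries, and overlapped through dorsal replicate 2.

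Cytoplasmic and junction partners of adhesion proteins had fold changes of both signs, with 7 of 11 higher in dorsal and 4 in ventral libraries (median 0.03) and 0 at an adjusted or an unadjusted p under 0.05 with edgeR, or with DESeq2. Ankyrin (Ank), which can link Neuroglian to the spectrin skeleton, averaged 416 ± 61.4 CPM in dorsal cells and 536 ± 98.6 CPM in ventral cells (SD, n = 3 each). The spectrin gene beta-Spec was at 50.5, 35.1 and 37.0 CPM in dorsal libraries, against 32.1, 34.7 and 25.4 CPM in ventral libraries, with dorsal replicate 2 just above ventral replicate 2.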
